A study of Capra hircus with 2 samples.

Results

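Skin of the Liaoning cashmere goat (Capra hircus), a breed kept for its white down fibre, was examined for 7 genes of pigment cells: MLANA, PMEL, TYR, TYRP1, TRPM1, PAX3 and MIA. The genes were chosen by symbol from known melanocyte biology, with earlier results of these data known. All 7 were among the 27137 features of the count matrix. They were read in each of 13051 cells, and 40 of these cells held a transcript of 2 or more of the 7 genes. Those 40 cells are called co-positive cells here, and the rule that defines them uses no gene but these 7.

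Melanocytes derive from the neural crest and make melanin inside a special organelle, the melanosome, which they pass on to keratinocytes. In hair, melanocytes sit in the bulb of a growing follicle, while their stem cells are kept in the bulge. The transcription factors PAX3 and SOX10 switch on MITF, the master regulator of the lineage, which in turn activates the genes of the melanosome. PMEL builds the fibrils on which melanin is laid down, and MLANA is a melanosomal membrane protein that helps PMEL to mature. TYR, tyrosinase, catalyses the rate-limiting step of melanin synthesis, and TYRP1 and DCT act after it on the way to dark eumelanin. Skin of a white animal may lack melanocytes, or may hold melanocytes that make little pigment.

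The study compared goats of a coarse type (CT-LCG) and a fine type (FT-LCG) of fibre, with scapular skin of healthy animals taken in anagen, the growth stage of the follicle. From each type 1 goat gave skin, which was dissociated and carried through the 10x Genomics 3' V3 kit as 1 library. In this kit each cell has a barcode and each captured RNA molecule a unique molecular identifier (UMI), so a molecule is counted once. Neither the fibre type of each animal nor its age stands in the sample labels, so the name of each library was taken from the deposited table of kept cells.

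The authors kept 3443 cells of CT-LCG with 27890472 UMIs and 9608 cells of FT-LCG with 85400323 UMIs, and the median cell held 2314 and 6121.5 UMIs. With 1 library per type there is no replicate, so values of CT-LCG and FT-LCG stand side by side with no test, and the goat, the library and the fibre type cannot be told apart. Levels are UMIs per 10000 UMIs summed over cells, with exact Poisson intervals, and shares of cells have Clopper-Pearson intervals. Both are 95% intervals for counting error only. A count of 0 is given the limit that 3 counts would set. The kept cells of the libraries shared 11 barcode sequences, and none of the co-positive cells had such a barcode.

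Among the pigment enzymes, TYR was counted in 11 CT-LCG cells with 23 UMIs and in 5 FT-LCG cells with 15 UMIs. Its level over all kept cells was 0.00825 UMIs per 10000 (0.00523 to 0.0124) in CT-LCG and 0.00176 (0.000983 to 0.0029) in FT-LCG. TYRP1 was counted in 2 cells of each library, with 5 UMIs for CT-LCG and 22 for FT-LCG, of which 17 came from 1 cell. Both enzymes were thus present, each in a small number of cells. DCT, which is not among the 7 genes, had 1 UMI in a CT-LCG cell and 11 UMIs spread over 11 FT-LCG cells.

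Of the melanosomal genes, MLANA had 173 UMIs in 28 CT-LCG cells and 175 UMIs in 29 FT-LCG cells, with up to 25 and 27 UMIs in a cell. Its level was 0.062 UMIs per 10000 (0.0531 to 0.072) in CT-LCG and 0.0205 (0.0176 to 0.0238) in FT-LCG. PMEL had 122 UMIs in 46 CT-LCG cells and 86 UMIs in 57 FT-LCG cells. MLANA counts were thus packed into fewer cells than PMEL counts, in both libraries. The co-positive cells held 94.2% and 91.4% of the MLANA UMIs of CT-LCG and FT-LCG, and 71.3% and 46.5% of the PMEL UMIs.

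TRPM1 encodes a cation channel of melanocytes and retinal bipolar cells, and its intron houses a microRNA gene under MITF control. It had 73 UMIs in 26 CT-LCG cells and 21 UMIs in 8 FT-LCG cells, and 82.2% and 95.2% of these UMIs lay in co-positive cells. PAX3, the neural crest and muscle progenitor factor, had 18 UMIs in 11 cells and 21 UMIs in 12 cells. Co-positive cells held 88.9% and 81% of the PAX3 UMIs. The muscle markers MYF5, MYOD1, PAX7, DES and MYF6 were at 0 in all 40 co-positive cells. They were also near 0 in all other cells, at a sum of 0.00651 (CT-LCG) and 0.0154 (FT-LCG) UMIs per 10000. With so low a level elsewhere, a count of 0 in 40 cells cannot tell whether muscle transcripts are lacking.

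MIA encodes a small secreted protein of melanoma cells and cartilage, and was the most widely spread of the 7 genes. It was counted in 66 CT-LCG cells with 105 UMIs and in 100 FT-LCG cells with 223 UMIs. Of the MIA UMIs, co-positive cells held 46.7% (CT-LCG) and 23.8% (FT-LCG), the lowest share among the 7 genes in each library.

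Co-positive cells numbered 25 of 3443 in CT-LCG (0.726%, 0.47 to 1.07) and 15 of 9608 in FT-LCG (0.156%, 0.0874 to 0.257). In CT-LCG, 16 of the 25 held 3 or more of the genes, and in FT-LCG 11 of the 15 did. Cells with 4 or more numbered 10 in each library, which is 0.29% (0.139 to 0.533) of CT-LCG cells and 0.104% (0.0499 to 0.191) of FT-LCG cells. The intervals of the libraries did not overlap for 2 or more genes and overlapped for 4 or more. No CT-LCG cell held all 7 genes and 1 FT-LCG cell did. When each cell was thinned to 1000 UMIs, 15 of 3074 CT-LCG cells (0.488%, 0.273 to 0.804) and 11 of 8569 FT-LCG cells (0.128%, 0.0641 to 0.23) were co-positive.

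The 7-gene cell of FT-LCG had 4367 UMIs in all, among them 19 of MLANA, 8 of PMEL, 5 of TYR, 17 of TYRP1, 4 of TRPM1, 1 of PAX3 and 2 of MIA. It also had 7 UMIs of MITF and 1 of DCT. The CT-LCG cell with the most member UMIs had 6128 UMIs, with 22 of MLANA, 13 of PMEL, 1 of TYR, none of TYRP1, 3 of TRPM1, 4 of PAX3 and 11 of MIA. Both cells carried PAX3, MITF and TYR, and SOX10 had 1 UMI in the CT-LCG cell and 0 in the FT-LCG cell. At the other end, all 9 CT-LCG cells and 3 of the 4 FT-LCG cells with exactly 2 of the genes held 1 UMI of each.

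**Figure D1:**
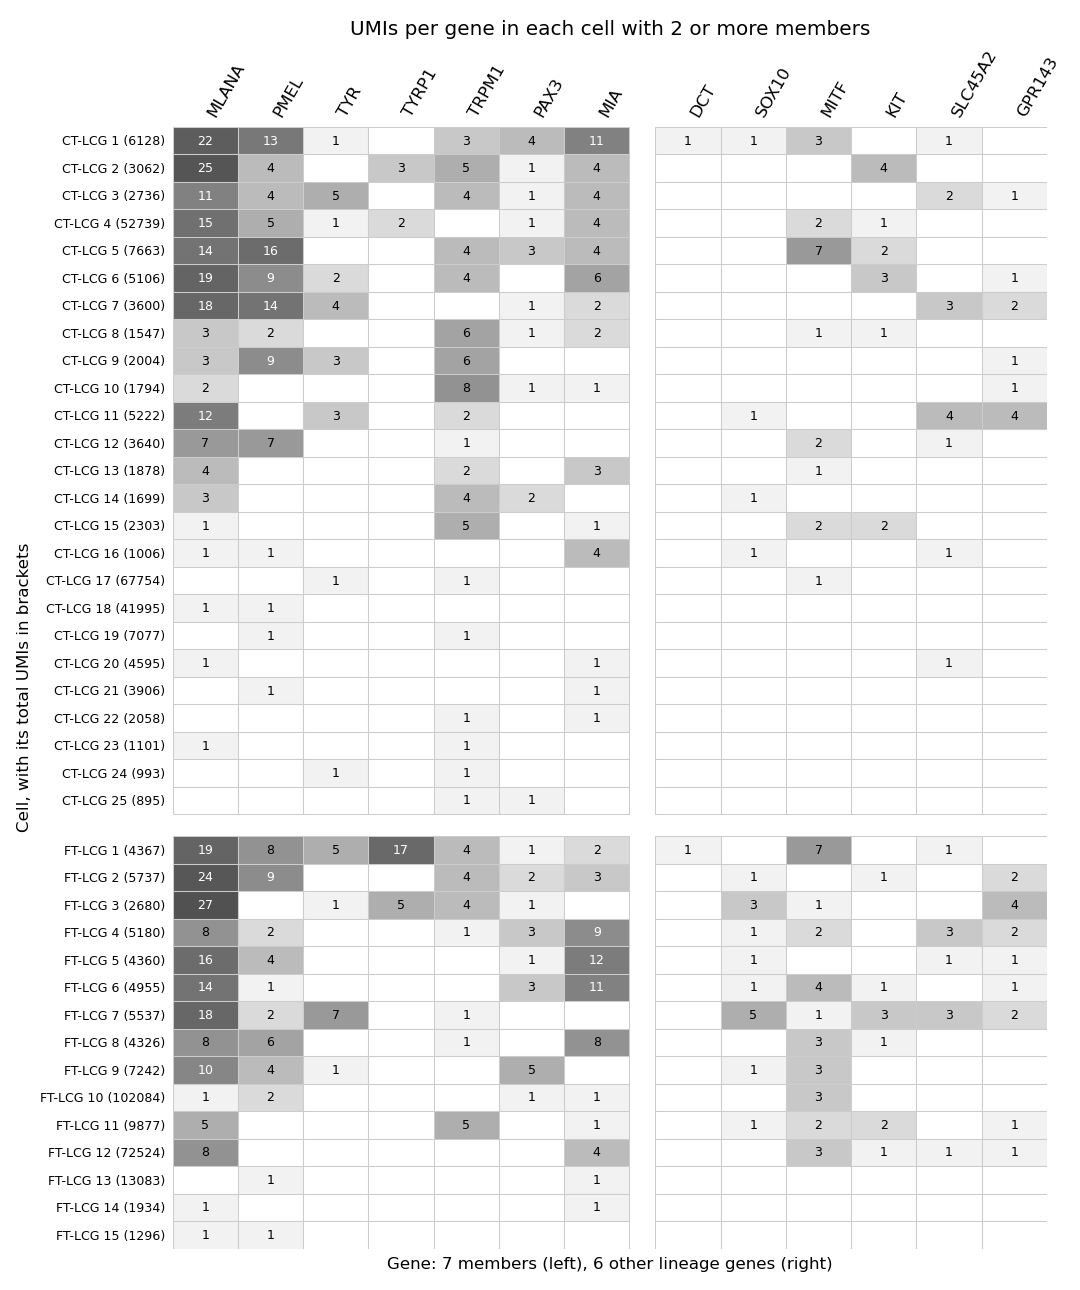
UMIs of the 7 member genes (left block) and of 6 other lineage genes (right block) in each of the 40 co-positive cells, 1 row per cell with its total UMIs in brackets, CT-LCG above FT-LCG; darker squares hold more UMIs and empty squares hold 0. Cells at the top of each block hold up to 25 (CT-LCG) and 27 (FT-LCG) UMIs of MLANA together with most of the other genes, while cells at the bottom hold 1 UMI of each of 2 genes.

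The summed level of the 7 genes per cell, which the rule itself pushes up, is given as a description beside the depth. In CT-LCG the median sum was 89.3 UMIs per 10000 in cells with 4 or more genes, 20.1 in cells with 2 or 3 and 1.96 in cells with 1. In FT-LCG these medians were 55.8, 10.3 and 1.19. Cells with 4 or more genes had a median depth of 3331 (CT-LCG) and 5067.5 UMIs (FT-LCG), against 5098 and 9932.5 in cells with 1 gene. The deepest cells behaved otherwise. The 3 co-positive CT-LCG cells over 40000 UMIs held 0.295, 0.476 and 5.31 UMIs per 10000 of the 7 genes, and the 2 such FT-LCG cells held 0.49 and 1.65. Without cells over 40000 UMIs, 22 and 13 co-positive cells were left.

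**Figure D2:**
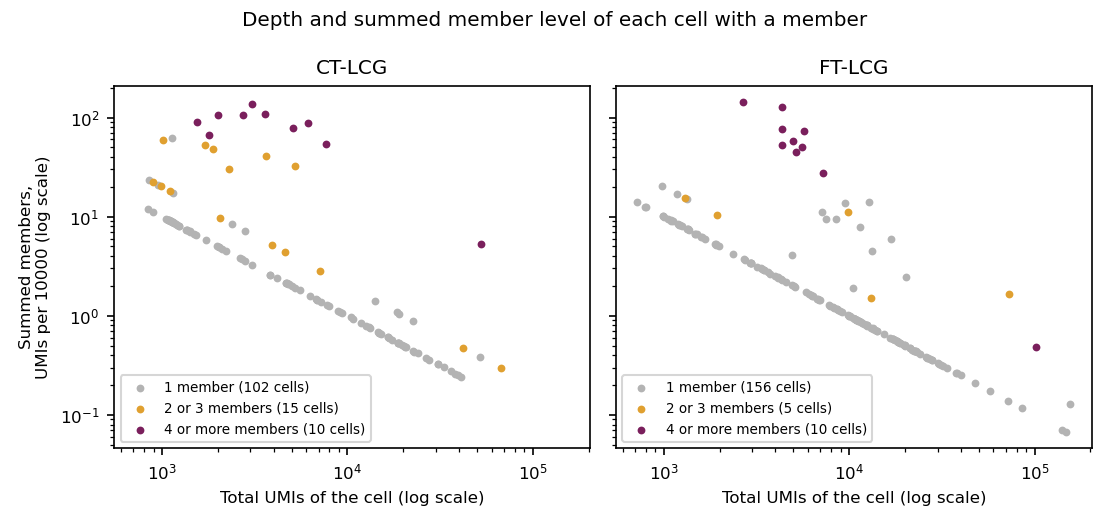
Summed level of the 7 genes (UMIs per 10000, log scale) against total UMIs (log scale) for each cell with at least 1 of the genes, in CT-LCG (left) and FT-LCG (right); colours give the number of genes detected. Grey cells with 1 gene mostly lie on the line that a count of 1 UMI draws, and cells with 4 or more genes lie above it, at up to 137 UMIs per 10000 in CT-LCG and 142 in FT-LCG.

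Cells with exactly 1 of the 7 genes numbered 102 in CT-LCG and 156 in FT-LCG. Of the CT-LCG cells with PMEL alone, 29 of 32 had 1 UMI of it, and in FT-LCG 46 of 46. For MLANA alone these counts were 8 of 9 and 15 of 15. To set a background, clusters of endothelial-like, macrophage or dendritic-like and mast-like cells were used, since such cells should not transcribe the 7 genes. There, 7 of 205 CT-LCG cells (3.41%, 1.38 to 6.91) and 4 of 299 FT-LCG cells (1.34%, 0.366 to 3.39) held at least 1 of the genes, at median depths of 3860 and 3622 UMIs. Over all kept cells the share with at least 1 gene was 3.69% (3.08 to 4.37) in CT-LCG and 1.78% (1.52 to 2.06) in FT-LCG. The share over all kept cells thus lay within the interval of the clusters that should lack the genes. The source of the single UMIs was not tested. A few cells held more UMIs of 1 gene alone, up to 18 of MIA and 7 of TRPM1. None of the 205 and 299 cells was co-positive, which allows a share of up to 1.46% and 1%.

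Each of the 21 pairs of the 7 genes was seen together in at least 1 cell of each library. A few cells fix this count, since the 1 FT-LCG cell with all 7 genes holds every pair. In CT-LCG the 4 cells with 6 genes hold every pair between them. MLANA and PMEL met in 22 cells, which is 38.6% of the 57 MLANA cells and 21.4% of the 103 PMEL cells. TYR met MLANA in 11 of its 16 cells (68.8%) and TRPM1 in 10 (62.5%). All 4 TYRP1 cells also held MLANA and PAX3, and 3 of the 4 held TYR. MIA met MLANA in 23 cells, 40.4% of the MLANA cells but 13.9% of the 166 MIA cells. That last share was the lowest among the genes paired with MLANA, and the share of PMEL cells came next.

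When each gene was left out of the rule in turn, it was still more frequent in cells with 2 or more of the other 6. MLANA had a UMI in 16 of 22 such CT-LCG cells (72.7%, 49.8 to 89.3) and in 11 of 12 such FT-LCG cells (91.7%, 61.5 to 99.8). In cells with none of the other 6 genes these shares were 0.271% of 3325 and 0.159% of 9452. At 1000 UMIs per cell MLANA was seen in 11 of 12 CT-LCG and 5 of 6 FT-LCG cells of this kind. MIA, left out in the same way, had a UMI in 12 of 22 CT-LCG cells (54.5%) and 8 of 12 FT-LCG cells (66.7%), against 1.51% and 0.934% of cells with none of the other genes. At 1000 UMIs per cell these were 4 of 12 and 3 of 9 cells (33.3% each), against 0.658% and 0.339%. So MIA was frequent in co-positive cells, although most of the cells that held it lay outside them.

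The pigment enzymes were seen in a part of the co-positive cells. A UMI of TYR, TYRP1 or DCT was present in 10 of the 25 CT-LCG cells (40%, 21.1 to 61.3) and in 4 of the 15 FT-LCG cells (26.7%, 7.79 to 55.1). TYR was in 9 and 4 of these cells, TYRP1 in 2 and 2, and DCT in 1 and 1. TYR and TYRP1 occurred together in 1 CT-LCG and 2 FT-LCG cells. Since TYR and TYRP1 count towards the rule, it was repeated with MLANA, PMEL, TRPM1, PAX3 and MIA alone, which left 38 cells, and 12 of these (31.6%, 17.5 to 48.7) held an enzyme. Among the 20 cells with 4 or more genes, 11 did (55%, 31.5 to 76.9).

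TYR and TYRP1 cells outside the co-positive cells are few in part by the rule, which counts both genes. There TYR had 1 UMI in each of 2 CT-LCG cells and 1 FT-LCG cell. TYRP1 was in 0 of 3418 CT-LCG cells, which allows a share of up to 0.0878%, and in 0 of 9593 FT-LCG cells, which allows up to 0.0313%. With the enzymes left out of the rule, 7 of the 11 TYR cells of CT-LCG, 4 of the 5 of FT-LCG and all 4 TYRP1 cells were still inside. DCT, which the rule does not use, differed. Of its 11 FT-LCG cells, 10 held none of the 7 genes and had 1 UMI each, and all 10 lay in the cycling-like cluster, whose leading genes include the hair keratin KRT35 and the cell division genes TOP2A and CENPF. There they were 10 of 706 cells (1.42%, 0.682 to 2.59), and the deepest of the 11 DCT cells had 52108 UMIs. In CT-LCG no DCT UMI was seen outside co-positive cells. The cycling-like cluster of CT-LCG held 229 cells at a median of 1745 UMIs, beside 706 cells at a median of 13328 in FT-LCG. Among thinned cells of that cluster, DCT was in 0% of 200 CT-LCG cells and 0% of 679 FT-LCG cells. The part that depth plays in this difference between the libraries was not tested.

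The remaining melanocyte genes were read from lists of enzymes, melanosome proteins, melanosome traffic, transcription factors, receptors and other melanocyte genes. A gene was counted when its share of cells with a UMI was at least 2 times higher in co-positive than in all other cells, in both libraries. Of 33 list genes outside the 7, 18 were counted, whereas 6.32% of all 20221 features with a UMI were. The median ratio of shares over the list genes with a UMI was 2.74 in CT-LCG and 3.83 in FT-LCG, beside 0.682 and 0.805 over all features. With 3 or more members required of a cell, 17 of the list genes were counted, beside 4.92% of features. At 1000 UMIs per cell, 13 were, beside 3.49% of features. These 13 include ERBB3 and RAB32, which were not counted at full depth. DCT, EDNRB, SLC24A5, SOX5, HPS4, S100B and CDH19 were counted at full depth only. For DCT the full-depth count rests on 1 co-positive cell with 1 UMI in each library.

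Of the 7 genes of melanosome structure and ion transport outside the members, 4 were counted. GPR143, the melanosomal receptor mutated in ocular albinism, had a UMI in 6 of 25 co-positive CT-LCG cells (24%) and 8 of 15 in FT-LCG (53.3%), against 3 of 3418 and 4 of 9593 other cells. SLC45A2, a melanosomal transporter whose loss causes albinism, was in 7 of 25 (28%) and 5 of 15 cells (33.3%), against 5 and 2 other cells. SLC24A5, an ion exchanger of the same pathway, was in 2 and 3 co-positive cells and in 2 and 2 others. GPNMB, a relative of PMEL that is also made outside melanocytes, was in 64% and 80% of co-positive cells, against 23.3% and 22.2% of other cells. OCA2, the albinism gene that sets melanosome pH, was in 0 of the 40 co-positive cells, which allows up to 7.5%, and had 1 UMI in 1 other FT-LCG cell. SLC24A4 had none in any kept cell, and TPCN2, a lysosomal and melanosomal cation channel, was in 4% and 6.67% of co-positive cells, against 2.87% and 4.35% of others.

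Of the 7 genes of melanosome traffic, 4 were counted. MLPH, which links melanosomes to the motor, was in 7 of 25 (28%) and 2 of 15 (13.3%) co-positive cells, against 0.936% and 0.636% of others. MYO5A, the motor itself, was in 36% and 60%, against 11% and 12.7%. RAB38, which sorts TYR and TYRP1 cargo, was in 68% and 66.7%, against 25.7% and 29.8%. RAB27A, which recruits MLPH, was in 4% and 26.7%, against 8.81% and 10.6%, and in both libraries the interval held the share of the other cells. HPS4, in 2 and 1 co-positive cells (8% and 6.67%, against 2.14% and 2.01%), was the last of those counted, but its intervals also held the share of the other cells and it was not counted at 1000 UMIs per cell.

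Among transcription factors of the lineage, MITF was in 8 of 25 (32%, 14.9 to 53.5) and 10 of 15 (66.7%, 38.4 to 88.2) co-positive cells, against 10.7% and 13.2% of other cells. SOX10 was in 4 of 25 (16%, 4.54 to 36.1) and 8 of 15 (53.3%, 26.6 to 78.7), against 0.293% and 0.271%. The share for SOX10 was the lower of the libraries in CT-LCG. At 1000 UMIs per cell, where the rule picks fewer cells, it was 3 of 15 (20%) in CT-LCG and 2 of 11 (18.2%) in FT-LCG. The part that depth plays was not tested. Of the 10 CT-LCG cells with 4 or more members, 1 had SOX10, and of the 10 such FT-LCG cells 7 had it. SOX5 was counted too, while TFAP2A, TFAP2B and LEF1 were not.

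Of the receptors, KIT, through which melanoblasts receive their survival signal, was in 6 of 25 (24%) and 6 of 15 (40%) co-positive cells, against 2.72% and 0.334% of others. EDNRB, the endothelin receptor of the lineage, was in 3 and 1 co-positive cells, against 1 and 3 of all others. ERBB3 was in 24% and 40%, against 21.7% and 25.7%, and was not counted. FZD4 was at 0 in co-positive cells. MC1R, the receptor that selects eumelanin, was not analysed here. Of the 8 other melanocyte genes outside the members, 4 were counted. APOD, a lipid carrier also made by fibroblasts, was in 44% and 60% of co-positive cells, against 2.81% and 1.12% of others. QPCT, S100B and CDH19 were counted too, while TSPAN10, CAPN3, BCAN and SLC7A5 were not. S100B was in 1 of 25 and 3 of 15 co-positive cells, against 1.14% and 1.69% of others. Its CT-LCG interval (0.101 to 20.4%) held the share of the other cells. CDH19 was in 3 of 25 and 1 of 15, against 1 and 7 of all others. In thinned cells, APOD and QPCT were still counted, and S100B and CDH19 were not.

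**Figure D3:**
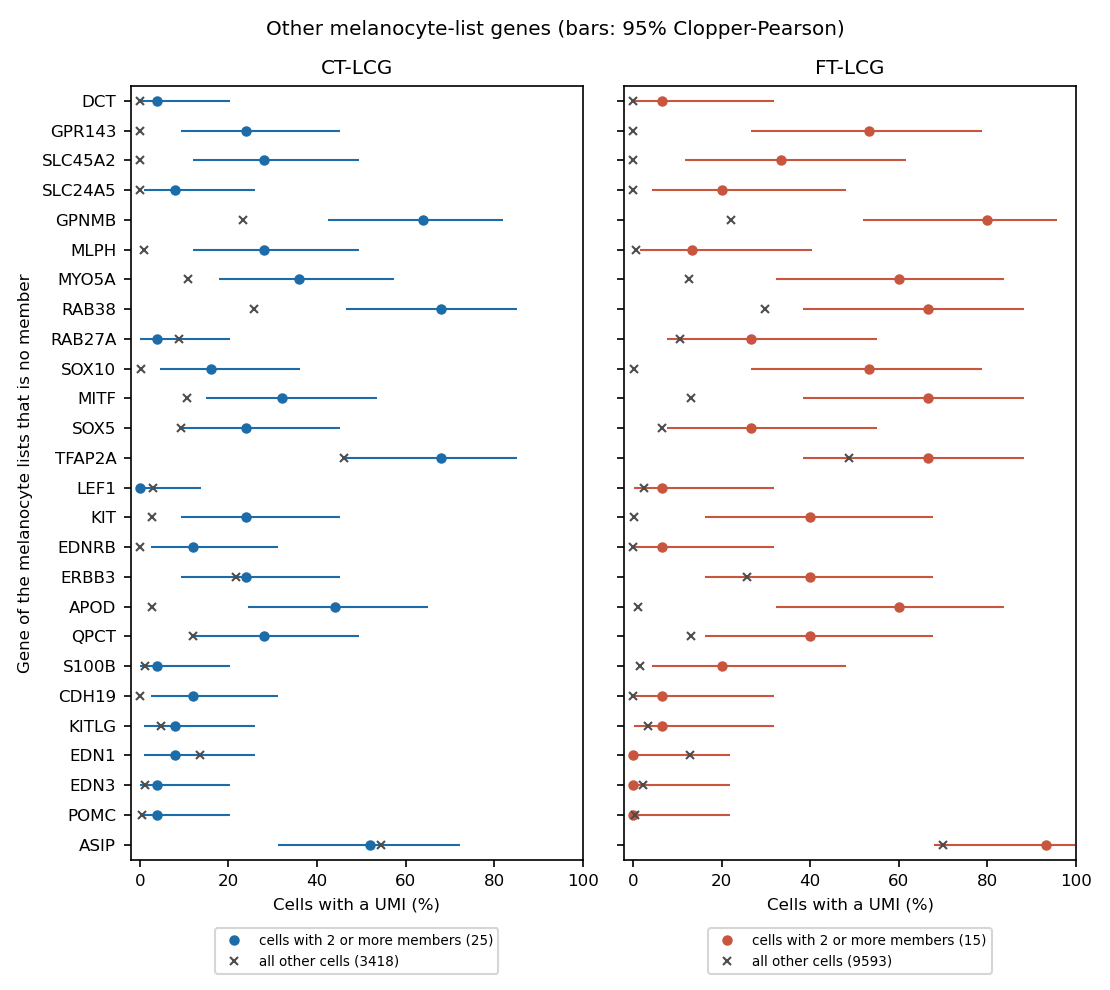
Share of cells with a UMI (%) of 26 list genes outside the 7 members, in co-positive cells (dots with 95% Clopper-Pearson intervals) and in all other cells (crosses), for CT-LCG (left) and FT-LCG (right). The 26 genes were picked by hand and include every gene counted at full depth but HPS4, so counted genes are over-represented. Not counted at full depth and not shown are OCA2, SLC24A4, TPCN2, RAB32, BLOC1S1, TFAP2B, FZD4, SLC7A5, CAPN3, BCAN and TSPAN10. GPR143, SLC45A2 and SOX10 lie near 0 in other cells and at 16% to 53.3% in co-positive cells, whereas ASIP and ERBB3 have crosses close to or within the intervals.

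Beyond the lists, 16670 genes were ranked by phi, the correlation over cells between having a UMI of the gene and being co-positive, averaged over the libraries. This is a description over cells of the same libraries, which share depth and free RNA, and it has no test. LECT1, the gene of the cartilage protein chondromodulin, came first, with a mean phi of 0.563. It was in 9 of 25 CT-LCG and 10 of 15 FT-LCG co-positive cells, against 3 and 8 of all others. PRKG2, a cGMP-dependent protein kinase, followed with 0.512 and was in 7 and 8 co-positive cells, against 5 and 3 others. GPR143 came next with 0.497.

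CLGN, an endoplasmic reticulum chaperone best known from testis, had 0.446, and SLC45A2 had 0.444. EEF1A2, a translation elongation factor of nerve and muscle, had 0.527 in CT-LCG and 0.21 in FT-LCG. NPY, a neuropeptide, had 0.0398 in CT-LCG and 0.451 in FT-LCG. For both genes the libraries thus gave unlike values. SOX10 had 0.281, APOD, CDH19 and NES were also among the first 20, and 5 of the 20 were list genes. The 20 also included TNFRSF13C, SCG3, NEURL3, ABCB4, LOC106502686, PLCXD3 and MPPED2.

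Clusters were built without the genes of the melanocyte lists, so that the 7 genes could not draw cells together. Of 14 clusters, 9 held co-positive cells, and no cluster was made of them. The largest number, 15 of 40 (37.5%, 22.7 to 54.2), lay in a fibroblast-like cluster with 96 cells of CT-LCG and 119 of FT-LCG. It held 13 of the 20 cells with 4 or more members. An unnamed cluster held 8, all of CT-LCG, another unnamed cluster led by STAR and THBS1 held 7, and 5 were outer root sheath or bulge-like. The endothelial-like, macrophage or dendritic-like and mast-like clusters held none.

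The name of the fibroblast-like cluster did not describe the co-positive cells inside it. Its 7 co-positive CT-LCG cells had 0 UMIs of the 6 fibroblast markers (COL1A1, COL1A2, COL3A1, LUM, DCN and PDGFRA), while its 89 other CT-LCG cells had 6013, or 136 UMIs per 10000. Its 8 co-positive FT-LCG cells had 1 UMI of these markers, while its 111 other cells had 12782, or 245 per 10000. The summed 7 genes, at 70.9 and 73.2 UMIs per 10000 in the co-positive cells and 0.0679 and 1.4 in the others, differ by the rule itself and are given as a description.

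Among the 13 clusters with at least 20 cells in each library, the level of each of the 7 genes was highest in the fibroblast-like cluster in both libraries, and all MLANA, TYR, TYRP1, TRPM1 and PAX3 UMIs of that cluster came from its co-positive cells. MLANA reached 2.31 UMIs per 10000 (1.9 to 2.79) there in CT-LCG and 2.4 (2.01 to 2.84) in FT-LCG, and came next in outer root sheath or bulge-like cells with 0.396 (0.245 to 0.606) and 0.0358 (0.0196 to 0.0601). For TRPM1 in CT-LCG these clusters were alike, with 0.484 (0.307 to 0.726) and 0.453 (0.29 to 0.674). For TYRP1 and PAX3 in CT-LCG the intervals of the first and next cluster also overlapped, and for the other members and for FT-LCG they did not. MLANA was at 0 in 5 of 13 ranked clusters of each library, TYR in 8 and 10, and TYRP1 in 11 and 12.

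**Figure D4:**
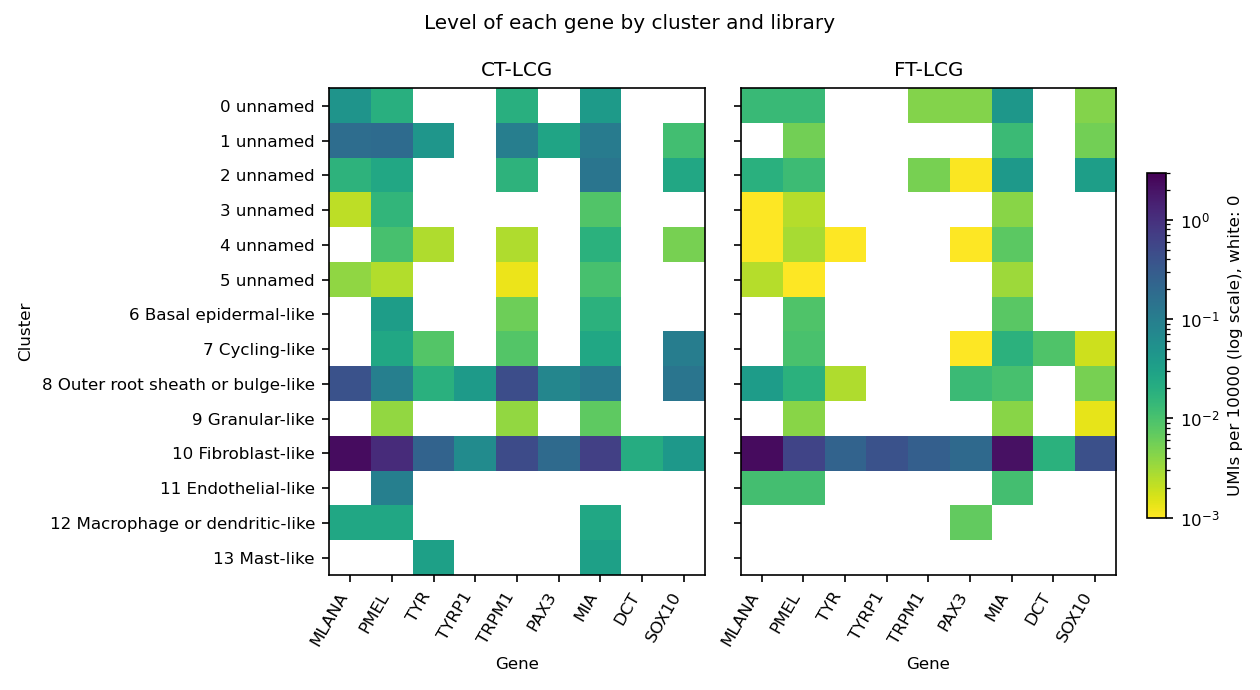
Level (UMIs per 10000, log colour scale, white for 0) of the 7 members, DCT and SOX10 in each of 14 clusters, in CT-LCG (left) and FT-LCG (right). The darkest row of members is the fibroblast-like cluster, with MLANA at 2.31 and 2.4, and DCT outside that row appears in the cycling-like cluster of FT-LCG.

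The other 73 member UMIs of the fibroblast-like cluster in FT-LCG were all MIA. These and a few cells elsewhere were looked at after their values had been seen. In FT-LCG, 9 cells held at least 3 UMIs of MIA and none of the other 6 genes, with 84 MIA UMIs in all and up to 18 in a cell, and 7 of the 9 lay in that cluster. SOX10 was in 6 of the 9, with 11 UMIs, and NGFR, the low-affinity nerve growth factor receptor, in 4. COL1A1 and CDH19 were at 0 in all 9. CT-LCG had no such cell.

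Markers of other cell types in co-positive cells varied from cell to cell. The summed level of KRT14, KRT5, KRT1 and KRT10, keratins of the epidermis, had a median of 117 UMIs per 10000 in co-positive CT-LCG cells and 380 in the other cells, with a range of 26.1 to 558 in the former. In FT-LCG the medians were 42.4 and 424, with a range of 12.6 to 429. Cells with 4 or more members had lower medians, 66.5 and 39.3, than cells with 2 or 3, 214 and 229. Endothelial, smooth muscle, mast and T cell markers were at 0 in all co-positive CT-LCG cells, while in FT-LCG the smooth muscle or pericyte markers had 7 UMIs and the endothelial, mast and T cell markers 1 UMI each. Schwann cell markers, some of them also melanocyte-list genes, were higher in co-positive than in other cells. They summed to 2.28 against 0.699 UMIs per 10000 in CT-LCG and 3.26 against 0.685 in FT-LCG. Sebocyte markers were also higher when summed, at 14.1 against 7.98 and 40.1 against 7.85, but lower in the median cell. Basal epidermal markers summed to 176 against 79.3 in CT-LCG and 157 against 243 in FT-LCG. In the median cell they were lower in co-positive cells of both libraries, at 19.4 against 50.5 and 29.6 against 221. The part that mixed droplets or free RNA play in any of these values was not tested.

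Other skin cells make the factors that act on melanocytes. KITLG, the ligand of KIT, had its highest level in endothelial-like cells, at 0.617 UMIs per 10000 (0.329 to 1.06) in CT-LCG and 0.465 (0.335 to 0.629) in FT-LCG. In CT-LCG that interval overlapped with that of outer root sheath or bulge-like cells at 0.491 (0.321 to 0.719), and in FT-LCG it lay above the cycling-like cluster at 0.241 (0.212 to 0.271). EDN1 was also highest in the endothelial-like cluster, with 2.56 and 1.34, close to an unnamed cluster led by KRT6A with 2.31 and 1.25. EDN3, whose product acts on EDNRB, was low, and its highest clusters were the basal epidermal-like one in CT-LCG, at 0.0646, and an unnamed cluster led by FCGBP and CCL27 in FT-LCG, at 0.0788. POMC, the source of the melanocyte-stimulating hormone, had 18 UMIs (CT-LCG) and 53 UMIs (FT-LCG).

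ASIP, agouti signalling protein, blocks MC1R and turns pigment from dark to yellow. It had 6931 UMIs in 1876 CT-LCG cells and 29774 UMIs in 6731 FT-LCG cells, or 2.49 UMIs per 10000 (2.43 to 2.54) and 3.49 (3.45 to 3.53). No ranked cluster was without it, with a range of 1.35 to 6.06 in CT-LCG and 2.81 to 6.06 in FT-LCG. The fibroblast-like cluster stood above the others in CT-LCG at 6.06 (5.38 to 6.8), and in FT-LCG it was at 5.82 (5.2 to 6.49), not apart from outer root sheath or bulge-like cells at 6.06 (5.82 to 6.31). Endothelial-like cells had 2.56 and 3.61, and the barcodes that were not kept as cells had 2.95 and 3.67. The level in most clusters was thus near that of these barcodes. They had at most 500 genes each, and the paper counted them as cells before its filter. They are thus no measure of free RNA alone. Whether the level in those clusters comes from the cells themselves was not tested. Co-positive cells had 2.11 (1.56 to 2.79) and 3.79 (3.06 to 4.65).

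**Figure D5:**
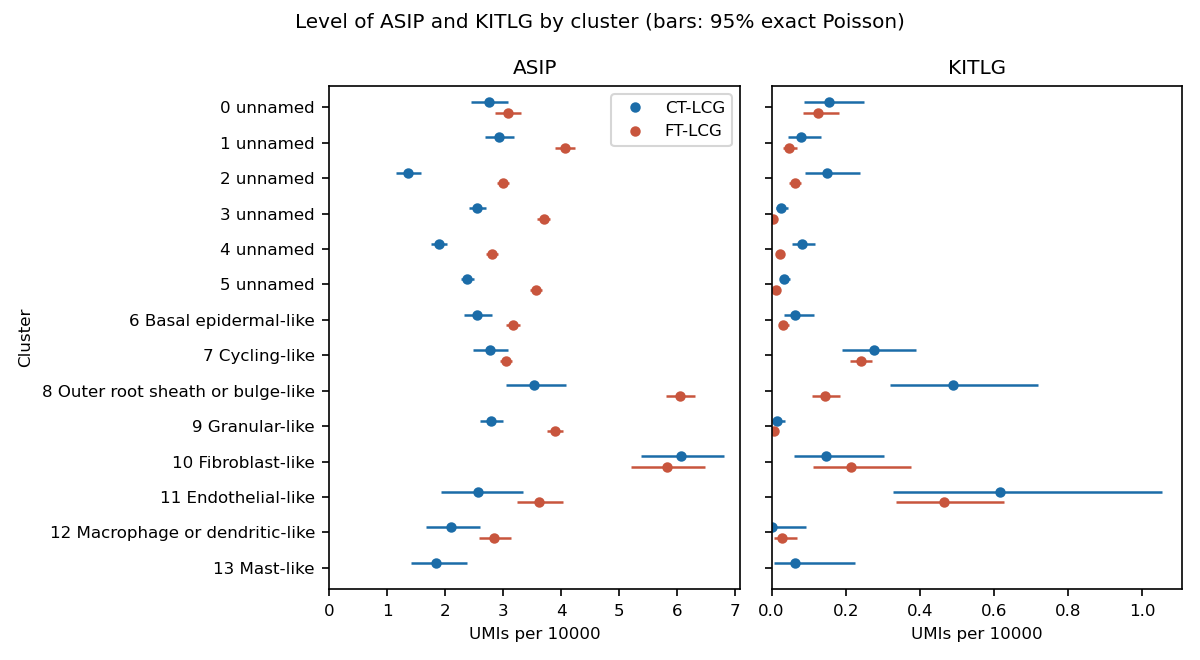
Level (UMIs per 10000) of ASIP (left) and KITLG (right) in each cluster of at least 20 cells, in CT-LCG and FT-LCG, with 95% exact Poisson intervals. ASIP is above 1 in every cluster shown and highest in fibroblast-like cells of CT-LCG and outer root sheath or bulge-like cells of FT-LCG, and KITLG is highest in the endothelial-like cluster of both.

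Between the libraries, the sum of the 7 genes over all kept cells was 0.186 UMIs per 10000 for CT-LCG and 0.0659 for FT-LCG. Within co-positive cells the mix of the genes was close for MLANA, with 40.6% (35.8 to 45.6) of the member UMIs in CT-LCG and 49.1% (43.5 to 54.6) in FT-LCG. PMEL took 21.7% (17.8 to 26.1) and 12.3% (8.91 to 16.3), and TRPM1 took 15% (11.6 to 18.8) and 6.13% (3.79 to 9.32). TYRP1 took 1.25% (0.406 to 2.89) and 6.75% (4.28 to 10), with 17 of the 22 FT-LCG UMIs in 1 cell. These shares rest on 401 and 326 UMIs of 25 and 15 cells, and the UMIs of a cell are not independent.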

How the data were processed

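The authors deposited 1 matrix of raw UMI counts (genes by barcodes, both libraries), written by Cell Ranger 3.0.2 according to its header. The submitters' processing notes also name Seurat 3.1.1. For the goat genome build, nothing is given in the sources used here. Their table of kept cells, with at least 501 genes each, set the cells and libraries. The 7 genes and all lists were chosen with earlier results of these data known, and nothing here is independent support for those results. The text names the 7 genes, the genes of the melanocyte lists and the 20 genes with the highest phi among genes in at least 10 cells. Counts were scaled to 10000 UMIs, log-transformed, reduced to 2000 variable genes without the melanocyte lists and 10 principal components, corrected for library with Harmony (rewritten in numpy) and clustered by Leiden on 20 neighbours, at the lowest resolution with at least 13 clusters, 0.5. Names come from marker lists. Doublets were not removed. Scrublet marked 0 of 13051 cells, so it did not work, and the 5% with the highest scores were left out as an alternative. The values of a few genes are not reported here. No test was run. Steps were tested on simulated data. Python 3.11.15, numpy 2.4.6, scipy 1.17.1 and scanpy 1.11.5 were used.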

Additional observations from a re-analysis of the deposited data

Results flagged for a closer look

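Of the 2659 CT-LCG barcodes that were not kept as cells, 5 held 2 or more of the 7 genes (0.188%, 0.0611 to 0.438, Clopper-Pearson), with 669 to 733 UMIs each. They were singled out because they lie in data outside the main measurement. One of them held 3 UMIs of MLANA, 1 of PMEL and 1 of TYRP1. None of the 1589 FT-LCG barcodes that were not kept held 2 or more. The level of MLANA in barcodes that were not kept was 0.0908 UMIs per 10000 (0.0538 to 0.144) in CT-LCG and 0.0401 (0.0109 to 0.103) in FT-LCG.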

How the results depend on the processing

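Of 43 alternatives, 33 stayed close to the value given (within 1.5 times for a count, within its 95% interval for a share or level), 10 moved, and no direction could turn because no test was run. The number of co-positive CT-LCG cells fell from 25 to 16 with 3 or more genes required, to 15 in cells thinned to 1000 UMIs, to 14 with at least 2 UMIs per gene, and to 10 with 4 or more genes, the last chosen after seeing the data, as was the removal of cells over 40000 UMIs. In FT-LCG the 15 cells became 10 to 14 under all these settings. Of the cells with at least 1 gene, 19.7% in CT-LCG and 8.77% in FT-LCG held another of the 7. Without PAX3 and MIA this share was 28% and 15.4%, and in thinned cells 27.8% and 20.8%. The summed level of the 7 genes, taken as a mean over cells, was 0.48 (CT-LCG) and 0.124 (FT-LCG) UMIs per 10000 instead of 0.186 and 0.0659. The share of co-positive cells in their main cluster ran from 37.5% to 52.5%. With 25 and 15 co-positive cells, shares have wide intervals, and a gene seen in 0 of 40 may be in up to 7.5% of such cells. No paired analysis was possible because each type has 1 library, and no library could be left out.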
